A study of Homo sapiens with 9 samples.

Results

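The genes described here lie at 0 to 50 Mb of chromosome 5, which is its short arm, in MCF-10A breast epithelial cells with or without a knock-in change in PIK3CA. The members were selected on position and measured level. Their smallest annotated exon start lies at or under 50000000 on chromosome 5 (hg38, as are all coordinates below), and their mean over the 9 libraries is at least 1 CPM (counts scaled to the library total). Of 709 genes annotated there, 583 were under 1 CPM, of which 123 had no count in any library, and 4 at or above 1 CPM (RPL37, HMGCS1, RICTOR and TARS1) were left out by name. That left 122 members of 60609 genes in the tables: 89 protein-coding genes, 27 long non-coding RNAs, 5 pseudogenes and 1 of another class. The arm itself was chosen by the measured fold changes of both knock-in lines against the parental line, which were mostly low. Both of those comparisons are therefore given as description without a test. Only the comparison of the knock-in lines with each other was not used to choose it, and its tests are reported. That comparison is the difference of those against WT, so it is not fully independent of the choice.

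The study sequenced RNA depleted of ribosomal RNA from 3 lines with 3 libraries each: H1047R, E545K and WT. H1047R carries a knock-in change in the kinase domain of p110-alpha, the catalytic subunit of PI 3-kinase that PIK3CA encodes, and E545K one in its helical domain, while WT is the parental MCF-10A line, bought from ATCC. Per the labels' protocols, the culture medium held 5% horse serum, insulin, hydrocortisone and cholera toxin, with epidermal growth factor (EGF) at 20 ng/ml for WT and 0 ng/ml for both knock-in lines. All cells spent the last 24 h in 0.2 ng/ml EGF and 1% stripped serum. Genotype and EGF history therefore cannot be told apart in either comparison with WT. The labels do not say how many clones stand behind each knock-in line. The H1047R counts were deposited in a table of their own, which confounds that genotype with its table.

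A chromosome arm is a physical unit and not a pathway: its genes share a DNA molecule and mostly differ in function. The short arm of chromosome 5 carries TERT, the gene of the telomerase catalytic subunit, near its tip, a cluster of Iroquois homeobox genes, the genes of the receptors for leukemia inhibitory factor, oncostatin M and growth hormone, and SKP2, whose product is the substrate-binding subunit of a ubiquitin ligase that acts on the cell cycle inhibitor p27. RNA from these genes is made in breast epithelium to very different extents, and several of them are known to respond to growth factors, steroids or PI 3-kinase signalling.

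Total counts were 377093507 to 605972919 in H1047R, 95533991 to 134245702 in E545K and 95091894 to 136132315 in WT, with each mate of a pair counted. KRT5 was at 12799 to 17071 CPM and TP63 at 133 to 197 CPM, and KRT17, EGFR and LAMB3 lay between these ranges, while KRT14 was between 26.8 and 68.2 CPM. CPM here and below refer to the library size scaled by edgeR's TMM factors, which adjust for composition. Luminal ESR1 was at 6.40 to 13.4 CPM and GATA3 at 17.2 to 46.0 CPM, and PGR stayed below 1 CPM. Of the fibroblast markers, COL1A1 was at 46.8 to 71.1 CPM, DCN at 10.98 to 14.2 CPM in H1047R, 7.05 to 8.13 CPM in E545K and 46.0 to 48.9 CPM in WT, and PDGFRB below 1 CPM in every library, as were endothelial PECAM1 and VWF. Of the leukocyte markers, CD68 was at 4.41 to 11.1 CPM. The part of these differences in the members' values was not tested. PTPRC stayed between 0.0291 and 0.0882 CPM of library totals, and CDKN2A, which MCF-10A cells are known to have lost, had 0 counts in every H1047R library and 1 to 8 counts in the others. PIK3CA itself was at 42.4, 43.9 and 41.7 CPM in H1047R, 39.1, 37.7 and 37.4 CPM in E545K, and 43.9, 46.5 and 47.9 CPM in WT. Its RNA level does not check the labels, because the knock-in changes single bases. H1047R libraries varied more among themselves, with a biological coefficient of variation over all genes of 0.216 in H1047R, 0.0286 in E545K and 0.0328 in WT. The pooled model used 0.118, which is below the value of the H1047R libraries and above those of the E545K and WT libraries.

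Most members had less RNA in both knock-in lines than in WT, and less in H1047R than in E545K. The median member stood at 0.740 times its WT level in H1047R (log2 fold change −0.43, interquartile range −0.72 to −0.14) and at 0.836 times in E545K (−0.26, −0.45 to −0.12). Over all 16312 genes with a mean of at least 1 CPM the medians were −0.04 in H1047R and −0.02 in E545K, and over the 626 such genes of chromosome 5 beyond 50 Mb they were 0.06 in H1047R and 0.05 in E545K. In bulk RNA, fewer cells with a transcript and less transcript per cell cannot be told apart, DNA was not analysed here, and no cause was tested.

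The shift was present in each library. Against the mean of the WT libraries, the median member stood at log2 −0.39, −0.42 and −0.49 in the H1047R libraries, at −0.27, −0.26 and −0.25 in the E545K libraries, and at −0.0025, −0.0073 and 0.0075 in the WT libraries. The 3 groups did not overlap, and the H1047R libraries were spread over a wider range (SD 0.048) than the E545K (0.0096) or WT (0.0075) libraries. Values against WT chose the arm, and the WT libraries were set against their own mean, so the lack of overlap with WT is description only. Members took 0.388% to 0.397% of all counts in H1047R, 0.449% to 0.452% in E545K and 0.516% to 0.523% in WT.

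**Figure D1:**
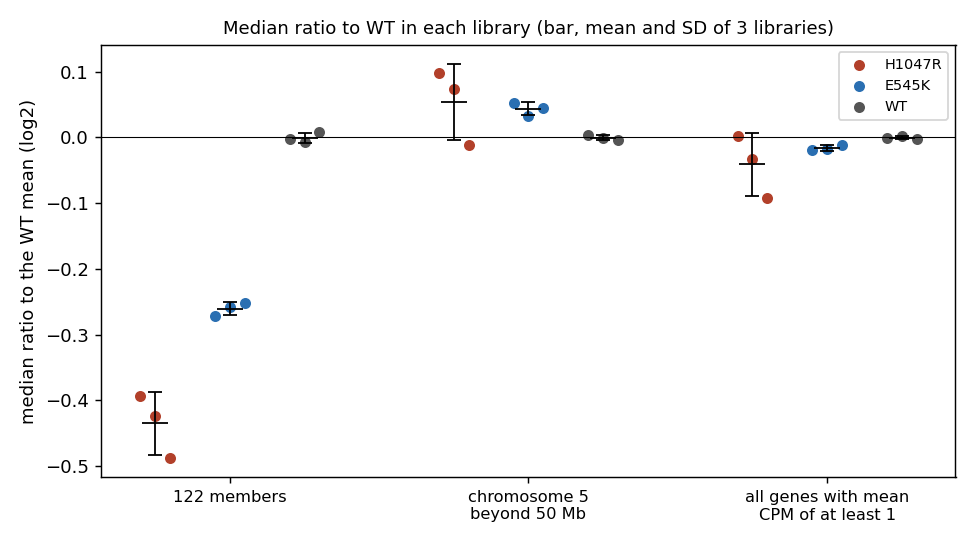
Median log2 ratio to the mean of the WT libraries (vertical axis) in each of the 9 libraries, for the 122 members, for chromosome 5 genes beyond 50 Mb and for all genes with a mean of at least 1 CPM. Points are libraries of H1047R, E545K and WT, and bars give the mean and SD of 3 libraries. The members of all 6 knock-in libraries lie between −0.49 and −0.25, below every WT library, while both other gene sets lie within 0.1 of 0.

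In H1047R against WT, 96 of 122 members were below 0. An adjusted p under 0.05 went with a lower value in 87 members, where 38% of the 16312 genes did so, and with a higher value in 18, where 32.3% did, and 17 were not called. In E545K against WT, 106 were below 0, 81 were called lower beside 27.6% of the 16312 genes, 9 were called higher beside 23.6%, and 32 were not called. The fit of E545K and WT alone called 90 members lower and 13 higher. It called 12585 of 23687 genes tested, 48.9% of them higher, where the main fit called 9663 of 26412. Because these contrasts chose the arm, the counts describe it and support nothing. Both comparisons share the WT libraries: 89 members were below 0 in both, 9 above 0 in both, 17 below in E545K and above in H1047R, and 7 the other way round. Between −1 and 0 in both comparisons lay 73 members. At least 2-fold lower were 16 members in H1047R, beside 5.67% of the 16312 genes, and 4 in E545K, beside 1.82%.

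Lower values were found along most of the arm. Taken in stretches of 10 Mb, the 40 members at 0 to 10 Mb had a median of −0.49 in H1047R and −0.31 in E545K. The 22 members at 10 to 20 Mb had −0.50 in H1047R and −0.27 in E545K, the 33 at 30 to 40 Mb −0.34 in H1047R and −0.20 in E545K, and the 25 at 40 to 50 Mb −0.41 in H1047R and −0.22 in E545K. Only 2 members, GUSBP1 and CDH10, lay at 20 to 30 Mb, with a median of −0.34 in H1047R and 0.18 in E545K. The Spearman correlation of a member's start with its fold change was 0.0728 in H1047R and 0.214 in E545K over 122 genes that share the same libraries.

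Members began at 196868 (CCDC127) and ended with ENSG00000272335 at 44826076, and the next gene of at least 1 CPM, EMB, began at 50396192. Just inside the boundary, NNT-AS1 stood at −0.55 in H1047R and −0.22 in E545K, NNT at −0.71 in H1047R and −0.37 in E545K, MRPS30-DT at −0.93 in H1047R and −0.98 in E545K, and MRPS30 at −0.25 in H1047R and −0.17 in E545K. The last member, ENSG00000272335, stood above WT in H1047R at 0.27 and below it in E545K at −0.31. Just beyond the boundary, EMB stood at −0.30 in H1047R and 0.14 in E545K, PARP8 at 0.26 in both, and ISL1 at 0.31 in H1047R and −0.56 in E545K. The next genes were below WT in both lines, PELO-AS1 at −0.55 in H1047R and −0.37 in E545K and PELO at −0.41 in H1047R and −0.06 in E545K. The 32 genes at 50 to 60 Mb had a median of 0.08 in both lines. A limit of 45 Mb in place of 50 Mb gave the same members. At the level threshold, ZDHHC11B, CDH10 and ZDHHC11 were just above 1 CPM and EEF1A1P13, C1QTNF3 and ENSG00000249492 just below, with fold changes from −0.82 to 0.68 in H1047R and −0.79 to 0.60 in E545K.

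**Figure D2:**
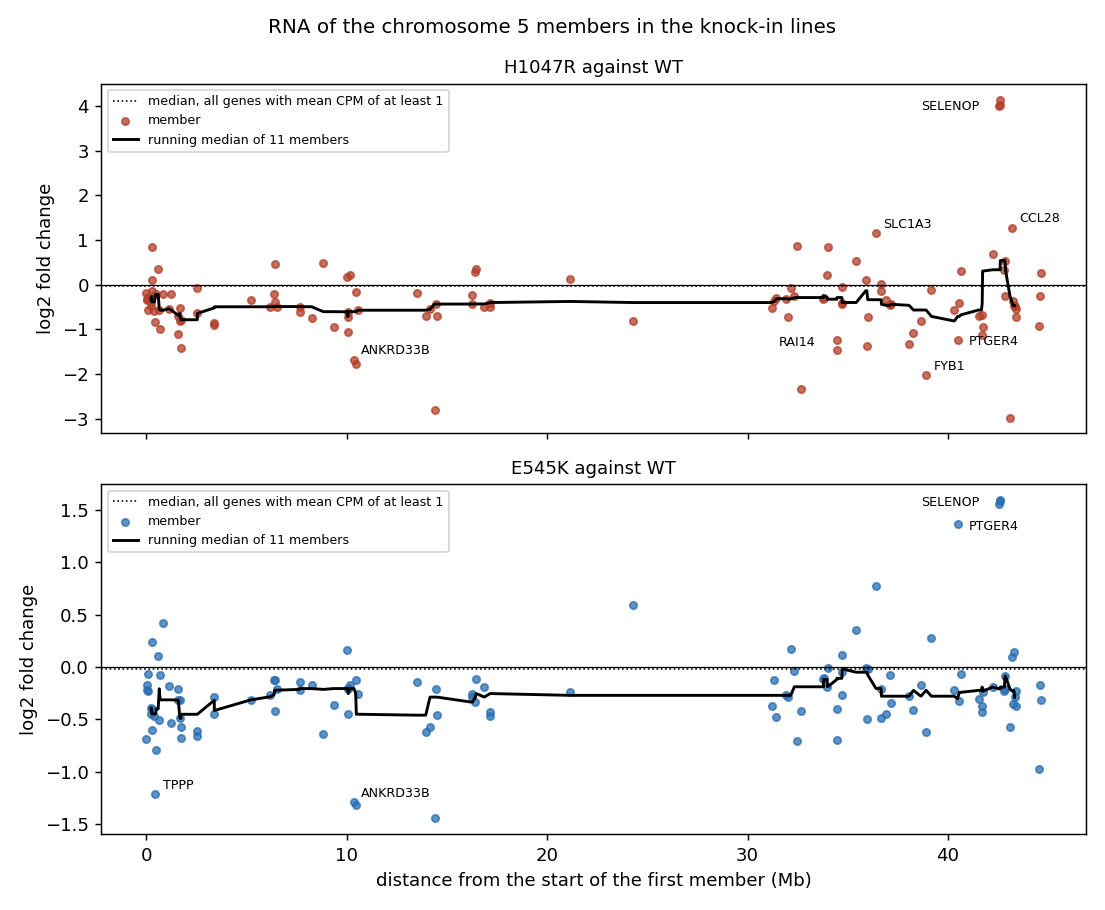
Log2 fold change against WT (vertical axes, different scales) of each of the 122 members by its distance from the start of the first member in Mb, for H1047R (upper panel) and E545K (lower panel). The black line is a running median of 11 members and the dotted line the median of all genes with a mean of at least 1 CPM. In E545K the running median stays at or below 0 along the arm, and in H1047R it is above 0 only from FBXO4 to ZNF131, the stretch that holds SELENOP.

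Among 69 stretches of 50 Mb with at least 50 genes of at least 1 CPM, this stretch, counted with the 4 genes left out by name, had the lowest median in H1047R against WT (−0.44). In E545K against WT it was the second lowest at −0.26, after the stretch of chromosome 13 beyond 100 Mb, whose 52 genes stood at −0.27 in E545K and −0.33 in H1047R. The arm is therefore not the only stretch with a low median in both lines. Between the knock-in lines it ranked 4th from the lowest.

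H1047R was compared with E545K to show how far the knock-in lines differed on the arm. The median member was lower in H1047R by a log2 value of −0.16, beside −0.02 over the 16312 genes and 0.01 on chromosome 5 beyond 50 Mb. In edgeR's quasi-likelihood test, adjusted over all 26412 genes tested, 63 members fell, beside 35.9% of the 16312 genes, 28 rose, beside 31.7%, and 31 did not pass. Libraries did not overlap, with H1047R lower, in 66 members, beside 37.7% of the 16312 genes, and with H1047R higher in 29, beside 33%. Of 90 members with a mean of at least 5 CPM, 4 fell by at least 2-fold, beside 3.5% of the 12372 genes at that level, and 3 rose, beside 2.88%, so that both counts were near the background. Scaling by library totals alone put the median of all genes tested at −0.12, beside 0.02 with TMM scaling, and the members' median at −0.30. The members' median minus that of all genes was −0.18 with library totals and −0.17 with TMM scaling. That difference was −0.06 with no filter on low counts and −0.13 with a filter at a mean of 1 CPM. It was −0.12 without H1047R replicate 3 and −0.21 without H1047R replicate 1. With library totals 33.2% of all calls between the lines were higher in H1047R, beside 48.7% with TMM scaling, and in E545K against WT 66.1% were higher, beside 48.3%.

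**Figure D3:**
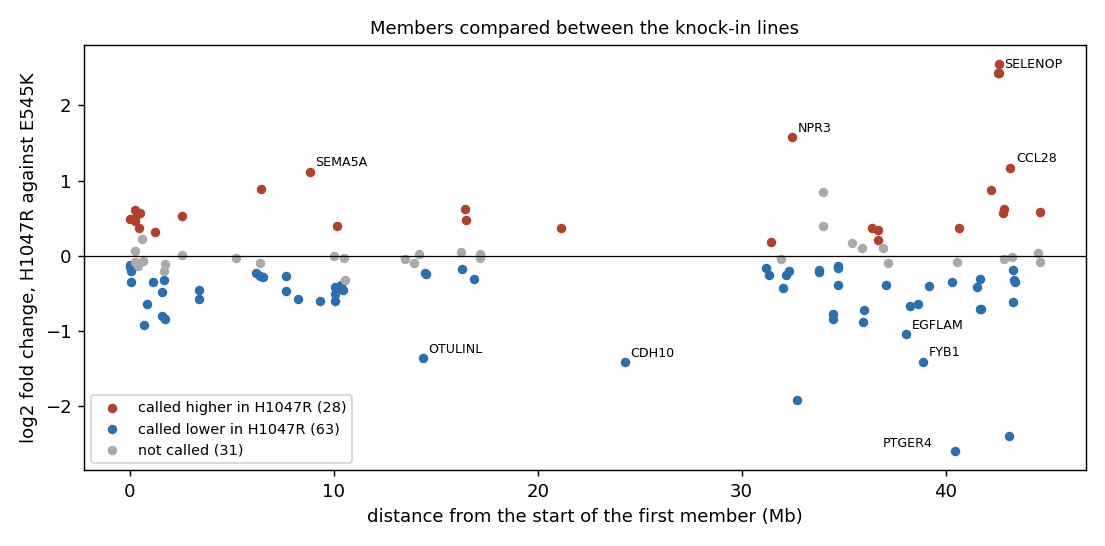
Log2 fold change of H1047R against E545K (vertical axis) of each member by its distance from the start of the first member in Mb, coloured by the call at an adjusted p under 0.05. Lower calls (63) outnumber higher calls (28) and both lie along the whole arm, with PTGER4 lowest and SELENOP among the highest.

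The members were then read by role, from 8 lists of genes of this arm. Beside each list's counts between the lines stand the shares over the 16312 genes, 35.9% that fell and 31.7% that rose in H1047R against E545K, and lists this short show no more than their counts. Against WT, values below 0 were found in 4 of 4 members of the DNA maintenance and cell cycle list in H1047R and 3 in E545K, and in 12 of 13 chromatin and transcription factors in both lines. They were found in 10 of 12 mitochondrial and metabolic genes in H1047R and 11 in E545K, in 6 of 7 ubiquitin genes in H1047R and 7 in E545K, and in 7 of 9 actin and adhesion genes in both lines. For membrane traffic and transporters it was 7 of 11 in H1047R and 8 in E545K, and for receptors 3 of 6 in H1047R and 4 in E545K. The DNA maintenance and cell cycle list was drawn up for telomere genes as well, but TERT was no member. It held 4 members (SKP2, TRIP13, RAD1 and CEP72), 3 of which fell in H1047R against E545K. SKP2 (ENSG00000145604.16, 36151989 to 36184319, plus strand) was at 23.3, 22.9 and 19.6 CPM in H1047R, 40.9, 40.2 and 39.7 CPM in E545K and 56.8, 56.3 and 56.8 CPM in WT. The 3 groups did not overlap, and SKP2 stood at −1.37 ± 0.06 in H1047R and −0.49 ± 0.06 in E545K against WT (log2 ± an approximate SE here and below). It fell in H1047R against E545K (−0.88 ± 0.06, edgeR adjusted p = 6.75e-09). TRIP13 (ENSG00000071539.14, 892884 to 919357, plus strand), an ATPase of the spindle checkpoint and meiotic recombination, was at 5.91, 5.65 and 5.38 CPM in H1047R, 11.2, 10.1 and 10.5 CPM in E545K and 11, 11.1 and 11.5 CPM in WT. E545K and WT overlapped while H1047R lay well below both, and TRIP13 fell in H1047R against E545K (−0.91 ± 0.06, edgeR adjusted p = 1.43e-08). RAD1, a subunit of the checkpoint clamp, was at 19 ± 0.996 CPM in H1047R, 21.2 ± 0.00477 CPM in E545K and 19.6 ± 0.638 CPM in WT (SD, n = 3 here and below), and its lower value in H1047R against E545K (−0.16 ± 0.05, edgeR adjusted p = 0.0159) lost its edgeR call with no filter on low counts (RAD1 adjusted p = 0.134) and without any 1 of the E545K libraries (adjusted p = 0.052 to 0.0549).

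TERT lies on the arm but was no member, with 16, 11 and 37 counts in H1047R, 45, 28 and 14 in E545K, and 33, 20 and 12 in WT. On the CPM scale, H1047R was at 0.0460, 0.0191 and 0.0711 CPM, E545K at 0.315, 0.259 and 0.140 CPM, and WT at 0.245, 0.211 and 0.127 CPM. TERT fell in H1047R against E545K (−2.39 ± 0.56, edgeR adjusted p = 0.00222), from few counts.

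Of the 13 members on the list of chromatin and transcription factors, 7 fell in H1047R against E545K, 1 rose and 5 did not pass. IRX2 (ENSG00000170561.13, 2745845 to 2751677, minus strand), an Iroquois homeobox factor, was at 217, 223 and 212 CPM in H1047R, 211, 218 and 218 CPM in E545K and 332, 337 and 351 CPM in WT. Both knock-in lines lay below WT without overlap and overlapped each other, with a difference of 0.01 ± 0.04 between them (adjusted p = 0.783), or of −0.12 (edgeR adjusted p = 0.00667) with scaling by library totals. The other Iroquois genes differed between the lines: IRX4 was at 65.2 ± 1.81 CPM in H1047R, 81.6 ± 1.74 CPM in E545K and 115 ± 3.8 CPM in WT and IRX1 at 7.63 ± 0.617 CPM in H1047R, 11.3 ± 0.605 CPM in E545K and 13.8 ± 0.191 CPM in WT, and both fell in H1047R against E545K (−0.33 ± 0.04, edgeR adjusted p = 8.01e-06, and −0.57 ± 0.07, adjusted p = 4.14e-06). IRX2-DT, a non-coding RNA that starts 454 bases from IRX2 on the other strand, was at 111 ± 9.25 CPM in H1047R, 76.5 ± 2.69 CPM in E545K and 117 ± 0.698 CPM in WT. It was below WT in E545K and overlapped WT in H1047R, and it rose in H1047R against E545K (0.53 ± 0.05, edgeR adjusted p = 8.83e-07). NIPBL, the loader of cohesin, was the 1 member of the list that rose in H1047R against E545K (0.21 ± 0.04, edgeR adjusted p = 0.000197), and that edgeR call was lost with library totals (NIPBL 0.08, adjusted p = 0.0997). NIPBL was at 116 ± 1.83 CPM in H1047R, 99.8 ± 1.34 CPM in E545K and 115 ± 3.18 CPM in WT. BASP1, a membrane-associated protein that also acts as a co-repressor, fell in H1047R against E545K (−0.31 ± 0.07, edgeR adjusted p = 0.00199) and was at 171, 145 and 129 CPM in H1047R, 183, 186 and 184 CPM in E545K and 209, 214 and 206 CPM in WT. Each H1047R library lay below each E545K library, which lay below each WT library. ZFR, a zinc finger protein that binds RNA, was above WT in every E545K library, at 79.9 ± 5.74 CPM in H1047R, 95.4 ± 1.14 CPM in E545K and 84.6 ± 0.652 CPM in WT, and fell in H1047R against E545K (−0.26 ± 0.05, edgeR adjusted p = 0.000331).

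All 10 members on the list of RNA processing and translation were below 0 in both knock-in lines against WT, with medians of −0.45 in H1047R and −0.21 in E545K. In H1047R against E545K, 8 fell and 2 did not pass. CCT5 (ENSG00000150753.12, 10249929 to 10266389, plus strand), a subunit of the chaperonin that folds actin and tubulin, was at 152, 134 and 122 CPM in H1047R, 195, 197 and 189.8 CPM in E545K and 224, 227 and 219.6 CPM in WT. The groups did not overlap, and CCT5 fell in H1047R against E545K (−0.51 ± 0.06, edgeR adjusted p = 5.47e-06), although 30.8% of its exon bases are shared with ENSG00000271980 on the other strand. NSUN2, an RNA cytosine methyltransferase, was at 74.1 ± 4.16 CPM in H1047R, 89.2 ± 1.6 CPM in E545K and 97.4 ± 1.23 CPM in WT, and PAIP1, a partner of poly(A)-binding protein in translation, at 55.6 ± 3.62 CPM in H1047R, 63.4 ± 1.59 CPM in E545K and 77.5 ± 1.03 CPM in WT. Both fell in H1047R against E545K (−0.27 ± 0.04, edgeR adjusted p = 0.000109, and −0.19 ± 0.05, adjusted p = 0.00332). The nucleoporin NUP155 stood at −0.46 ± 0.04 in H1047R and −0.07 ± 0.04 in E545K against WT, and the nuclease of microRNA precursors DROSHA at −0.53 ± 0.04 in H1047R and −0.37 ± 0.04 in E545K.

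On the list of mitochondrial and metabolic genes, 8 of 12 members fell in H1047R against E545K, 2 rose and 2 did not pass. SDHA, the flavoprotein subunit of respiratory complex II, was at 119, 112 and 109 CPM in H1047R, 121, 124 and 125 CPM in E545K and 143, 146 and 142 CPM in WT. All knock-in libraries lay below WT, but copies of SDHA elsewhere in the genome and 21.6% of shared exon bases make its value uncertain, and its difference between the lines (−0.13 ± 0.04, edgeR adjusted p = 0.0175) lost its edgeR call in the fit of those 2 groups alone (SDHA adjusted p = 0.0664), with no filter on low counts (0.196), and without E545K replicate 2 (0.0722), E545K replicate 3 (0.0824) or H1047R replicate 2 (0.0575). NNT (ENSG00000112992.18, 43602692 to 43707405, plus strand), the mitochondrial transhydrogenase that makes NADPH, was at 88.8, 84.5 and 82 CPM in H1047R, 108, 107 and 109 CPM in E545K and 139.8, 140.3 and 139 CPM in WT. The groups did not overlap, and NNT fell in H1047R against E545K (−0.35 ± 0.04, edgeR adjusted p = 2.71e-06). NADK2, the mitochondrial NAD kinase, had 21.4 ± 2.03 CPM in H1047R, 35.1 ± 0.447 CPM in E545K and 35.6 ± 0.852 CPM in WT, with overlap of E545K and WT, and fell in H1047R against E545K (−0.72 ± 0.06, edgeR adjusted p = 9.66e-08). NDUFS6, a subunit of complex I, was at 30.8, 19.3 and 15 CPM in H1047R, 32.1, 39.8 and 41.3 CPM in E545K and 49, 46.3 and 45 CPM in WT, and the highest H1047R library stood well above the other two.

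Within this list, SRD5A1 (ENSG00000145545.12, 6633427 to 6674386, plus strand), a steroid 5-alpha-reductase that makes dihydrotestosterone, went against the arm in H1047R. It was at 75.4, 81.8 and 78.7 CPM in H1047R, 43, 41.7 and 43 CPM in E545K and 56.7, 55.7 and 57.9 CPM in WT. H1047R lay above WT and E545K below it, without overlap, and SRD5A1 rose in H1047R against E545K (0.88 ± 0.04, edgeR adjusted p = 2.12e-10), 1.85-fold. LPCAT1, a lysophospholipid acyltransferase, also rose in H1047R against E545K (0.31 ± 0.05, edgeR adjusted p = 6.72e-05) but stayed below WT in both lines, at 23.8 ± 1.18 CPM in H1047R, 19.2 ± 0.503 CPM in E545K and 27.8 ± 0.547 CPM in WT. ATPSCKMT, a methyltransferase of the mitochondrial ATP synthase c subunit, was above WT in every knock-in library, at 10.3, 10.2 and 9.82 CPM in H1047R, 10.5, 10.1 and 9.79 CPM in E545K and 9.4, 8.44 and 9.21 CPM in WT.

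Of the 6 members on the list of receptors and their ligands, 3 fell and 3 rose in H1047R against E545K. OSMR (ENSG00000145623.13, 38845858 to 38945596, plus strand), the oncostatin M receptor, was at 67.8, 57.8 and 57 CPM in H1047R, 93.8, 94.3 and 96.1 CPM in E545K and 107, 106 and 109 CPM in WT, and LIFR (ENSG00000113594.10, 38474668 to 38608354, minus strand), the leukemia inhibitory factor receptor, was at 18.5, 18.9 and 18 CPM in H1047R, 31, 27.3 and 29.6 CPM in E545K and 40.0, 37.8 and 38.9 CPM in WT. Both signal through gp130, neither gene's groups overlapped, and both fell in H1047R against E545K (−0.64 ± 0.06, edgeR adjusted p = 1.98e-07, and −0.67 ± 0.05, adjusted p = 3.87e-08). PTGER4 (ENSG00000171522.6, 40679915 to 40693735, plus strand), the EP4 receptor for prostaglandin E2, was at 1.51, 2.16 and 1.95 CPM in H1047R, 10.7, 11.5 and 12 CPM in E545K and 4.2, 4.44 and 4.63 CPM in WT. E545K lay above WT and H1047R below it, without overlap, at log2 values of −1.23 ± 0.11 in H1047R and 1.36 ± 0.11 in E545K against WT. It fell in H1047R against E545K (−2.60 ± 0.11, edgeR adjusted p = 8.17e-11), to 0.166 times the E545K level, the lowest fold change of any member between the lines.

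GHR, the growth hormone receptor, and NPR3, the clearance receptor for natriuretic peptides, showed the other order. GHR (ENSG00000112964.14, 42423439 to 42721878, plus strand) was at 25.1, 30.3 and 27.5 CPM in H1047R, 14.7, 15.4 and 15.1 CPM in E545K and 16.9, 16.7 and 18 CPM in WT, and NPR3 (ENSG00000113389.16, 32689070 to 32791724, plus strand) at 6.96, 5.72 and 5.26 CPM in H1047R, 1.99, 2.12 and 1.9 CPM in E545K and 3.25, 3.26 and 3.33 CPM in WT. In both genes every H1047R library was above every WT library and every E545K library below, and both rose in H1047R against E545K (0.87 ± 0.06, edgeR adjusted p = 2.6e-08, and 1.58 ± 0.11, adjusted p = 1.49e-08). CCL28 (ENSG00000151882.11, 43376645 to 43412391, minus strand), a mucosal chemokine that attracts lymphocytes and eosinophils, was at 31.2, 28.3 and 25.6 CPM in H1047R, 13, 12.1 and 12.5 CPM in E545K and 11.8, 11.3 and 12 CPM in WT. H1047R stood above both other groups and CCL28 rose in H1047R against E545K (1.17 ± 0.07, edgeR adjusted p = 1.72e-09). The median of the list between the lines was 0.12 and turned to −0.02 with scaling by library totals.

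Of 7 members on the list of ubiquitin and protein quality control, 5 fell in H1047R against E545K, 1 rose and 1 did not pass. MARCHF6 (ENSG00000145495.16, 10353695 to 10440388, plus strand), a ubiquitin ligase of the endoplasmic reticulum membrane that acts on sterol synthesis enzymes, was at 220.3, 239 and 226 CPM in H1047R, 174, 176 and 172 CPM in E545K and 195, 195 and 196 CPM in WT. H1047R was above WT and E545K below it, without overlap, and MARCHF6 rose in H1047R against E545K (0.39 ± 0.04, edgeR adjusted p = 7.79e-07). The linear-chain deubiquitinase OTULIN (36.6 ± 0.552 CPM in H1047R, 42.7 ± 0.983 CPM in E545K and 49.5 ± 1.66 CPM in WT) and the calcium-binding PDCD6 (46.5 ± 2.79 CPM in H1047R, 53.6 ± 1.4 CPM in E545K and 55.9 ± 0.637 CPM in WT) fell in H1047R against E545K (−0.22 ± 0.04, edgeR adjusted p = 0.000301, and −0.20 ± 0.05, adjusted p = 0.00164). DAP was at 46.9 ± 2.4 CPM in H1047R, 47.9 ± 1.06 CPM in E545K and 52.3 ± 1.12 CPM in WT and did not pass between the lines (−0.03 ± 0.04, adjusted p = 0.593). OTULINL, a relative of OTULIN without known enzymatic activity, had the lowest fold changes of any protein-coding member against WT (−2.80 ± 0.17 in H1047R and −1.44 ± 0.16 in E545K), at 0.547, 0.353 and 0.411 CPM in H1047R, 1.08, 1.13 and 1.14 CPM in E545K and 2.94, 2.95 and 3.2 CPM in WT.

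On the list of actin and adhesion genes, 5 of 9 members fell in H1047R against E545K, 3 rose and 1 did not pass. TRIO (ENSG00000038382.20, 14143342 to 14532128, plus strand), a large protein that acts on the actin cytoskeleton, was at 129, 133 and 148 CPM in H1047R, 146, 146 and 143 CPM in E545K and 223, 222 and 226 CPM in WT. H1047R and E545K overlapped and both lay below WT, with −0.09 ± 0.05 between the lines (adjusted p = 0.13). The edgeR fit called TRIO lower in H1047R with library totals (−0.22, adjusted p = 0.00589) and without H1047R replicate 3 (−0.15, adjusted p = 0.000517). RAI14 (ENSG00000039560.14, 34656328 to 34832612, plus strand), an actin-binding protein of cell junctions, was at 45.1, 42.6 and 39.9 CPM in H1047R, 77.1, 73.5 and 77.5 CPM in E545K and 101, 99.8 and 101 CPM in WT and fell in H1047R against E545K (−0.84 ± 0.05, edgeR adjusted p = 1.29e-09) with no overlap among the 3 groups. FYB1 (ENSG00000082074.18, 39105252 to 39274528, minus strand), an adaptor best known from T cells and platelets, was at 6.96, 5.42 and 4.71 CPM in H1047R, 15.1, 14.9 and 15.2 CPM in E545K and 23.9, 22.4 and 23.2 CPM in WT. It fell in H1047R against E545K (−1.41 ± 0.10, edgeR adjusted p = 2.69e-08), to 0.376 times the E545K level. Of the leukocyte markers, PTPRC was at or below 0.0882 CPM in every library, and CD68 was at 5.54, 6.24 and 4.41 CPM in H1047R, 7.29, 7.20 and 6.64 CPM in E545K and 11.1, 10.7 and 10.9 CPM in WT. CD68 thus had the same order of groups as FYB1, and its part in the result was not tested. EGFLAM (ENSG00000164318.18, 38258409 to 38465480, plus strand), the matrix protein pikachurin, was at 9.63, 7.27 and 6.73 CPM in H1047R, 16.5, 16.2 and 15.9 CPM in E545K and 19, 20.3 and 19.7 CPM in WT and fell in H1047R against E545K (−1.05 ± 0.10, edgeR adjusted p = 4.69e-07). MYO10 (ENSG00000145555.15, 16661907 to 16936288, minus strand), the myosin of filopodial tips, was at 135, 137 and 143 CPM in H1047R, 100.0, 100.2 and 99.3 CPM in E545K and 108, 109.6 and 107 CPM in WT and rose in H1047R against E545K (0.47 ± 0.04, edgeR adjusted p = 5.62e-08). The axon guidance protein SEMA5A rose as well (1.12 ± 0.13, edgeR adjusted p = 4.01e-06), at 3.22 ± 0.492 CPM in H1047R, 1.48 ± 0.0148 CPM in E545K and 2.3 ± 0.208 CPM in WT.

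Of the 11 members on the list of membrane traffic genes and transporters, 4 fell in H1047R against E545K, 3 rose and 4 did not pass, which is near the shares over all genes. Their median between the lines was 0.06, and −0.07 with library totals. GOLPH3 (ENSG00000113384.14, 32124716 to 32174319, minus strand), a Golgi protein that retains glycosyltransferases, was at 75.8, 76.8 and 69 CPM in H1047R, 75.9, 76.6 and 76.5 CPM in E545K and 90.6, 91.1 and 94.3 CPM in WT. The knock-in lines overlapped each other below WT, and the difference between them was −0.05 ± 0.04 (adjusted p = 0.4) or −0.18 (edgeR adjusted p = 0.000248) with library totals. EXOC3, a subunit of the exocyst, was at 58.7 ± 2.33 CPM in H1047R, 56.3 ± 0.652 CPM in E545K and 76.7 ± 1.53 CPM in WT, with 0.06 ± 0.04 between the lines (adjusted p = 0.216). CLPTM1L, a membrane protein encoded next to TERT, was at 63.4 ± 2.44 CPM in H1047R, 81 ± 0.0412 CPM in E545K and 92 ± 1.23 CPM in WT and fell in H1047R against E545K (−0.35 ± 0.04, edgeR adjusted p = 2.31e-06). The sodium-proton exchanger SLC9A3 was at 25.5 ± 1.95 CPM in H1047R, 18 ± 0.764 CPM in E545K and 23.7 ± 0.334 CPM in WT and rose (0.51 ± 0.06, edgeR adjusted p = 3.13e-06), with 56.8% of its exon bases shared with other genes, mainly PP7080.

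SLC1A3 (ENSG00000079215.14, 36606355 to 36688334, plus strand), a glutamate and aspartate transporter, was at 55.8, 47.1 and 45.6 CPM in H1047R, 38.8, 38.1 and 37.5 CPM in E545K and 22.8, 23.3 and 20.8 CPM in WT. Both knock-in lines lay above WT without overlap (1.15 ± 0.07 in H1047R and 0.77 ± 0.07 in E545K), and SLC1A3 rose in H1047R against E545K (0.38 ± 0.07, edgeR adjusted p = 0.000235). It shares no exon bases with another gene.

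SELENOP (ENSG00000250722.6, 42799880 to 42887392, minus strand), the secreted plasma protein that carries selenium to tissues, departed furthest of the protein-coding members from the arm's lower values. It was at 89.8, 114 and 95.9 CPM in H1047R, 18.1, 19 and 18.8 CPM in E545K and 5.98, 6.25 and 6.3 CPM in WT. H1047R stood far above E545K and E545K above WT, with log2 values of 4.02 ± 0.08 in H1047R and 1.59 ± 0.08 in E545K against WT, and SELENOP rose 5.38-fold in H1047R against E545K (2.43 ± 0.07, edgeR adjusted p = 2.17e-12). CCDC152 overlaps it on the other strand, shares 41.6% of its exon bases with it and was at 66.4, 86 and 71.2 CPM in H1047R, 13.3, 14.2 and 13.9 CPM in E545K and 4.33, 4.98 and 4.77 CPM in WT. ENSG00000272234, which lies wholly within SELENOP exons, was at 11 ± 1.82 CPM in H1047R, 1.86 ± 0.199 CPM in E545K and 0.615 ± 0.0713 CPM in WT. With counting that ignored strand, the 3 genes cannot be told apart and count as 1 departure.

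The promoter window of SELENOP is shown because this gene had the highest fold change of the protein-coding members in both lines against WT and because it is known as a target of FOXO factors, which PI 3-kinase signalling keeps out of the nucleus. The sequence (RefSeq, GRCh38.p14, chr5:42811843-42812142, minus strand, 250 bases before to 50 after the annotated start) reads 5′ to 3′, with a match to the FOXO core TGTTTAC, read on the other strand as GTAAACA, and a TATAAA match in capitals.
SELENOP: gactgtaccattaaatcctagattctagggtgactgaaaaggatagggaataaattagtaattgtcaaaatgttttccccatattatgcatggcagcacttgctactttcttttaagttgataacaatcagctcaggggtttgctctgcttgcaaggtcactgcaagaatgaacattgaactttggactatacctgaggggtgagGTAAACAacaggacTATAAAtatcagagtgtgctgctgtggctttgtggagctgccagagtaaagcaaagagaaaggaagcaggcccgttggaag
The FOXO match begins 45 bases and the TATAAA match 31 bases before the RefSeq start, which lies inside the gene range given above and not at its end. On either strand, TGTTTAC occurs in 3.42% of 35116 RefSeq promoter windows of the same length and TATAAA in 11.5%. The motifs do not overlap here. Of 92 members with a window, 4 held TGTTTAC (LIFR, PAIP1, SELENOP and TMEM267), and the other three were lower than WT in both lines. A match is a run of letters and was not tested as a binding site. SELENOP was above WT in both knock-in lines, and whether FOXO factors had a part in its level was not tested.

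Other departures were smaller. The caspase-recruitment-domain protein CARD6 was at 43.2 ± 2.99 CPM in H1047R, 33.5 ± 1.13 CPM in E545K and 35 ± 0.114 CPM in WT, above WT in every H1047R library, and rose in H1047R against E545K (0.36 ± 0.05, edgeR adjusted p = 2.47e-05). SLC9A3-AS1 was higher in both lines (0.85 ± 0.08 in H1047R and 0.24 ± 0.08 in E545K), with 17.5% of its exon bases shared with SLC9A3. The sperm flagellar gene SPEF2, at 3.3 ± 0.429 CPM in H1047R, 2.94 ± 0.419 CPM in E545K and 2.3 ± 0.136 CPM in WT, was above WT without overlap in both lines.

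**Figure D4:**
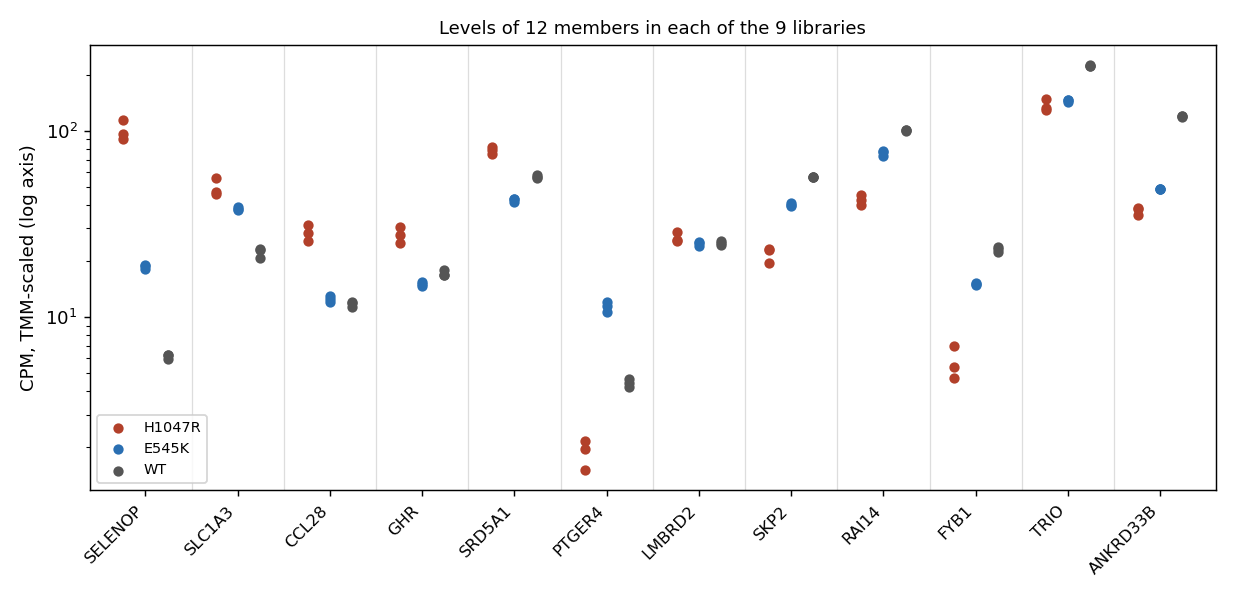
Level in CPM of the TMM-scaled library size (vertical axis, log scale) of 12 members in each library of H1047R, E545K and WT. SELENOP, SLC1A3 and CCL28 are highest in H1047R, GHR and SRD5A1 are higher in H1047R and lower in E545K than in WT, PTGER4 shows the opposite order, and SKP2, RAI14, FYB1, TRIO and ANKRD33B are lower in both knock-in lines.

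Among members with a mean of at least 5 CPM, the steepest lower values of protein-coding genes outside these lists belonged to ANKRD33B in both lines and TPPP in E545K. ANKRD33B (ENSG00000164236.12, 10564070 to 10657816, plus strand), an ankyrin repeat protein, was at 35.1, 38.1 and 38.6 CPM in H1047R, 48.6, 48.9 and 49 CPM in E545K and 120.0, 118 and 120.5 CPM in WT. Every H1047R library lay below every E545K library and both below WT (−1.68 ± 0.04 in H1047R and −1.29 ± 0.04 in E545K), and ANKRD33B fell in H1047R against E545K (−0.39 ± 0.04, edgeR adjusted p = 1.74e-06). The pseudogene ENSG00000251196 lies wholly within its exons on the other strand and had fold changes of −1.77 ± 0.07 in H1047R and −1.32 ± 0.07 in E545K, which cannot be told apart from those of ANKRD33B. TPPP (ENSG00000171368.12, 659862 to 693352, minus strand), which promotes tubulin polymerization, was at 12.8, 11.9 and 11.8 CPM in H1047R, 8.81, 10.0 and 9.45 CPM in E545K and 21.6, 21.8 and 22 CPM in WT, lower in E545K than in H1047R (0.37 ± 0.06, edgeR adjusted p = 8.15e-05). CCDC127, the first member of the arm, also had its lowest level in E545K, at 22.7 ± 1.42 CPM in H1047R, 16.1 ± 0.312 CPM in E545K and 26 ± 0.143 CPM in WT.

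ENSG00000261604, a long non-coding RNA, had the lowest value of all members in H1047R against WT (−2.98 ± 0.12). It lies wholly within exons of HMGCS1, a sterol-synthesis gene left out by name, so its 7.51 ± 1.92 CPM in H1047R, 39.5 ± 1.14 CPM in E545K and 58.8 ± 1.07 CPM in WT cannot be told apart from HMGCS1 reads. Of the lncRNAs free of shared exon bases, ENSG00000250697 was at 0.878, 0.835 and 0.609 CPM in H1047R, 2.95, 3.04 and 2.78 CPM in E545K and 4.04, 3.56 and 4.16 CPM in WT, and it fell in H1047R against E545K (−1.92 ± 0.14, edgeR adjusted p = 2.33e-08). Another lncRNA, ENSG00000248994, shares 3.45% of its exon bases with ENSG00000288108. It was at 7.76 ± 0.947 CPM in H1047R, 8.38 ± 0.479 CPM in E545K and 13.4 ± 0.33 CPM in WT and was lower than WT in both lines.

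Neighbouring genes on the arm differed in fold change. Among 18 pairs of members on opposite strands whose starts lay within 1000 bases, the difference in log2 fold change against WT ranged from 0.09 to 1.47 in H1047R and from 0.04 to 0.84 in E545K. The closest pair in both lines was FTH1P10 and ENSG00000248223, which share 63.7% and 68.3% of their exon bases. With strand ignored, their reads cannot be fully told apart. CCDC127 was paired with SDHA and again with ENSG00000286001, which shares most of its exon bases with SDHA and other genes. The widest pair in H1047R was LMBRD2 and SKP2, whose starts lie 102 bases apart. LMBRD2, a membrane protein gene, was at 25.9, 28.5 and 25.6 CPM in H1047R, 24.2, 25.1 and 25.3 CPM in E545K and 24.4, 25.1 and 25.5 CPM in WT, against the low SKP2 levels given above, so that the log2 fold change in H1047R against WT was 0.10 ± 0.05 for LMBRD2 and −1.37 ± 0.06 for SKP2. SEMA5A and SNHG18 were 1.44 apart in H1047R against WT, PP7080 and SLC9A3-AS1 0.99, ATPSCKMT and CCT5 0.89, and NSUN2 and SRD5A1 0.86. In these pairs 1 gene was below WT and the other above it in H1047R.

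The window between SKP2 and LMBRD2 is shown because both genes start from it. It is the SKP2 promoter window (RefSeq, GRCh38.p14, chr5:36151861-36152160, plus strand), read 5′ to 3′, and the 277 bases in capitals also lie, on the other strand, in the window of LMBRD2.
SKP2: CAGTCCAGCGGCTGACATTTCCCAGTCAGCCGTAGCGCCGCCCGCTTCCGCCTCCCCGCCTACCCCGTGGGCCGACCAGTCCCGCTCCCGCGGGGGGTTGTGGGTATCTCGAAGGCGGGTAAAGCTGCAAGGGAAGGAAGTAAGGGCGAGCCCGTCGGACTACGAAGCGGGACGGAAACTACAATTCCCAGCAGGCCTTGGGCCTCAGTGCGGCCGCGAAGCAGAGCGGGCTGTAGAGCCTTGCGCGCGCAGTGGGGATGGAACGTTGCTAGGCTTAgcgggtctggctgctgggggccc
Neither TGTTTAC nor TATAAA is among the letters of this window on either strand.

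**Figure D5:**
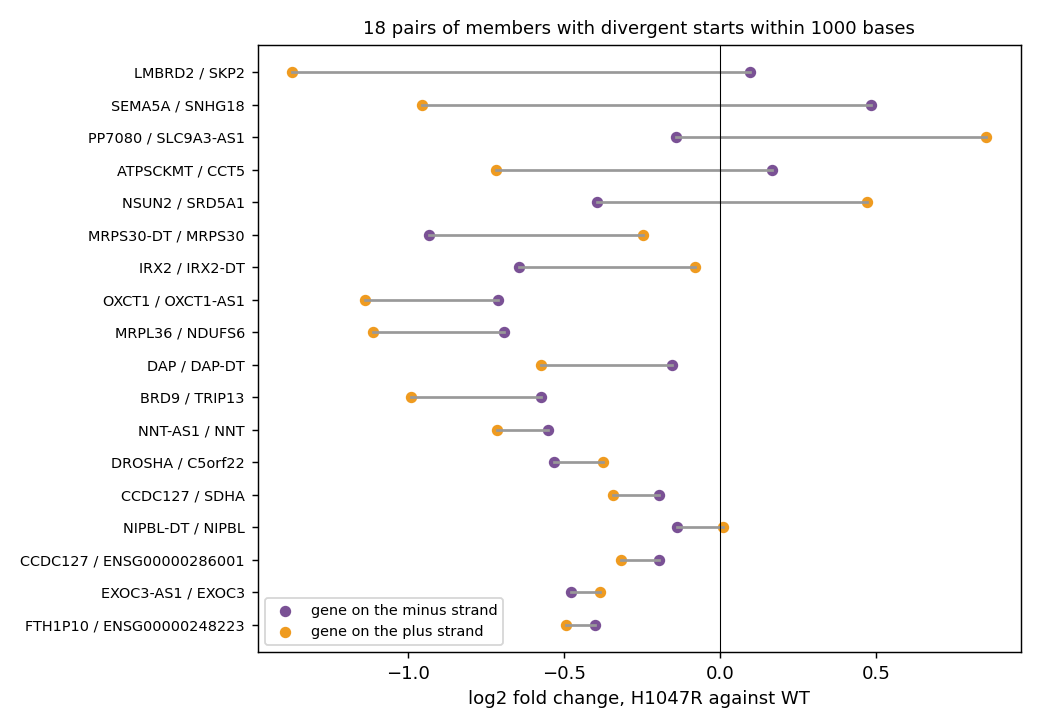
Log2 fold change of H1047R against WT (horizontal axis) of both genes in 18 pairs of members on opposite strands with starts within 1000 bases, one row per pair. Points joined by a line are the 2 genes of a pair, and the longest line joins LMBRD2 (0.10) and SKP2 (−1.37).

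Per kilobase of exon, the member with the highest level in WT was IRX2, with a CPM per kilobase of 64 in H1047R, 63.4 in E545K, 100.0 in WT. BASP1 followed, with a CPM per kilobase of 69 in H1047R, 85.8 in E545K, 97.7 in WT. Spearman correlations between a member's mean level and its log2 fold change were −0.0047 in H1047R and 0.0325 in E545K against WT. Members had a median exon GC content of 44.3%, beside 48.4% over the 16312 genes. Fold change against WT correlated with GC content over the 16312 genes (Spearman −0.160 in H1047R and −0.234 in E545K), in the direction that gives genes of low GC content higher values. With a GC trend subtracted the members' medians were −0.51 in H1047R and −0.28 in E545K. Of the members, 63 share some exon bases with another gene and 19 share over 25%. The 59 that share none had medians of −0.44 in H1047R and −0.27 in E545K.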

How the data were processed

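RNA-seq of 9 libraries of MCF-10A cells (H1047R, E545K and WT, 3 each) was used. The authors deposited raw counts per gene in separate tables, 1 for H1047R and 1 for E545K with WT, made with featureCounts 2.0.0 on GENCODE 32 (hg38), per the file headers, with reads counted for every overlapping gene, strand ignored and mates counted singly. The submitters' processing notes also name STAR, SAMtools 1.5, cutadapt, Trim Galore 0.4.0 and FastQC. The table columns call the libraries "parental" and "mutant", which were read as WT and E545K because the labels name that table for no other line. Each table's columns of counts were all used. Gene names came from GENCODE 44, which matched 60340 of 60609 IDs, and 15 members kept their ID.

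Counts were fitted with edgeR 4.0.16 (R 4.3.3, limma 3.58.1; filterByExpr, TMM, quasi-likelihood test, all 9 libraries, genotype only), with Benjamini-Hochberg adjustment over 26412 genes and calls at an adjusted p under 0.05. All 122 members passed the filter. The edgeR steps were also run on simulated counts with the same spread in every group. The real groups differ in spread, so no support is drawn from that run. Alternatives were other scalings and filters, DESeq2 1.42.0, a replicate block, fits of the groups compared, and leaving out each library. A count of 3, used as the detection floor, equals 0.00495 to 0.00796 CPM in H1047R, 0.0223 to 0.0314 in E545K and 0.0220 to 0.0315 in WT, for counting error only. Nothing in the labels ties the libraries to separate cultures. The p-values then cover only how libraries differ, and that spread may be technical.

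The members, role lists and tests were chosen with earlier results of these data known. By rule, the text names members with a mean of at least 5 CPM that had the 8 lowest fold changes against WT in each line, the 10 departures with the highest smaller fold change, opposite members, those at least 2-fold apart between the lines, and the 3 most abundant of each role list, with TERT and PIK3CA. Further members were named after their values were seen. The adjusted p-values of members named for their fold changes are those of a selected set.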

Additional observations from a re-analysis of the deposited data

Results flagged for a closer look

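In 24 members the fold changes of the knock-in lines against WT had opposite signs, and in 21 of them edgeR's quasi-likelihood test called the difference between the lines. In 9 of these both lines were also called against WT, and only these are given here. Of these 9, GHR, MYO10, MARCHF6 and ENSG00000272335 lost the E545K call against WT in some alternatives, MARCHF6 only with library totals. ENSG00000272335 also lost its H1047R call against WT in some alternatives. Members picked for opposite signs against WT largely differ between the lines by that choice. These counts and the lack of overlap below are therefore description only, and no share over all genes stands beside them. E545K was below WT and H1047R above it in 8 of the 9. The log2 fold change of H1047R against E545K was 0.88 for SRD5A1, 1.12 for SEMA5A, 0.39 for MARCHF6, 0.62 for RETREG1-AS1, 0.47 for MYO10, 1.58 for NPR3, 0.87 for GHR and 0.58 for ENSG00000272335. PTGER4 had the opposite order, with H1047R below WT and E545K above it, at −2.60 in H1047R against E545K. In all of these members the H1047R and E545K libraries did not overlap in level. RETREG1-AS1 was at 7.17 ± 0.38 CPM in H1047R, 4.66 ± 0.0993 CPM in E545K and 5.89 ± 0.441 CPM in WT, and ENSG00000272335 at 6.55 ± 0.919 CPM in H1047R, 4.39 ± 0.423 CPM in E545K and 5.45 ± 0.112 CPM in WT (SD, n = 3).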

How the results depend on the processing

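With each alternative the members' medians stayed below 0. In E545K against WT the median was −0.16 with library totals, −0.25 with upper-quartile scaling, −0.24 with a filter at a mean of 1 CPM, −0.27 over the 59 members without shared exon bases, −0.22 over protein-coding members and −0.28 with a GC trend removed, the last 2 chosen after seeing the data. In H1047R against WT it was −0.38 with upper-quartile scaling and −0.51 with the GC trend removed, and in H1047R against E545K −0.30 with library totals and −0.21 with the GC trend removed. In E545K against WT library totals moved the median of all genes to 0.096, and the members' median minus it stayed at −0.26. In H1047R against WT upper-quartile scaling moved it to 0.079, and that difference stayed at −0.46. The 1 CPM filter gave differences of −0.24 in E545K and −0.40 in H1047R, and no filter −0.27 and −0.37. Leaving out 1 library gave member medians of −0.46 to −0.40 in H1047R against WT, −0.28 to −0.26 in E545K against WT and −0.19 to −0.13 in H1047R against E545K. The members called then numbered 100 to 110 in H1047R against WT, 69 to 99 in E545K against WT and 83 to 98 in H1047R against E545K. Of the 59 members without shared exon bases, 50 were called in H1047R against WT (42 lower). In E545K against WT 44 were called (40 lower), and in H1047R against E545K 43 (30 lower). These are fewer because fewer members are counted. All these totals pool both directions. In the main fit, the shares called lower and higher over the 16312 genes were 38% and 32.3% in H1047R against WT. They were 27.6% and 23.6% in E545K against WT, and 35.9% and 31.7% in H1047R against E545K. The comparisons with WT chose the arm, so their counts are description only.

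IRX2 in H1047R against E545K turned to −0.12 with library totals. Of the calls between the lines, 54 of 63 lower and 22 of 28 higher were kept in all 17 alternatives. In H1047R against WT, 82 of 87 lower and 16 of 18 higher calls were kept. Fewer were kept in E545K against WT, 57 of 81 lower and 5 of 9 higher. Those lost there included CCT5, NSUN2, OSMR, GHR, MYO10, MARCHF6, DAP and EGFLAM. PIK3CA in H1047R against WT (−0.11, edgeR adjusted p = 0.0438) lost its call with upper-quartile scaling (−0.054), no filter (−0.077), the 1 CPM filter (−0.069) and the replicate block (−0.11), and in every fit without 1 library except those without WT replicate 1 or H1047R replicate 2. Over the 9 such fits it ranged from −0.15 to −0.084 (PIK3CA adjusted p = 0.0233 to 0.2). PIK3CA in H1047R against E545K was 0.029 with library totals and 0.15 to 0.19 without 1 library, and in E545K against WT −0.31 to −0.25. Deviations of same-numbered libraries correlated at −0.035 to 0.023, so the numbers do not pair the samples, and with a replicate block 105 members were called in H1047R against WT, 88 in E545K against WT and 91 in H1047R against E545K. Depth limits TERT, with 11 to 45 counts in a library. The cause of these changes was not tested.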
